A study of Mus musculus with 2 samples.

Results

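The loci of Igf2bp1, Igf2bp2 and Igf2bp3 were examined in chromatin immunoprecipitation sequencing (ChIP-seq) of mouse mesenchymal stromal cells with and without Dicer, the ribonuclease that cuts microRNA precursors. Both lines, Dicer KO and Dicer WT, were monoclonal and immortalized, and were grown in Alpha-MEM with serum. The sample titles call them fibroblasts. How Dicer was removed is not given in the sources used here, and each genotype is a single clone as far as the labels say, so a difference between genotypes cannot be told apart from one between clones. The labels describe 1 H3K27ac sample per genotype, while H3K4me3 and H3K36me3 come only as lists that name the genotypes.

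The data are 6 lists of predicted binding events, 1 for each mark and direction, with positions in mm9. An event has a position, its estimated reads in the genotype where it was higher, and the reads of the other genotype multiplied by a scale factor. Only events that differed at the authors' threshold are listed, so a place without an event is not a place without the mark. Members are all events inside 3 windows: chr11:95810000-95885000 for Igf2bp1, chr16:22055000-22185000 for Igf2bp2 and chr6:49030000-49175000 for Igf2bp3. These windows were chosen by results of the same lists, which had shown large differences there. All values below are therefore descriptions, without tests. The windows held 86 of the 21418 events of the series, 24 at Igf2bp1, 34 at Igf2bp2 and 28 at Igf2bp3. Cell identity and the deletion of Dicer were not analysed here, because the lists give positions without genes and no annotation in mm9 was used.

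The Igf2bp genes encode RNA-binding proteins, also called IMP or VICKZ proteins, that bind messenger RNAs and affect their stability, translation and place in the cell. They are called oncofetal because they are abundant in the embryo, low in most adult tissues and raised again in many tumours, with Igf2bp2 the member most often found in adult tissue. All 3 are known targets of let-7, the microRNA family that Dicer releases from its hairpins and that rises as cells differentiate. Of the marks, H3K4me3 sits at promoters, H3K27ac at active promoters and enhancers, and H3K36me3 over the bodies of transcribed genes.

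The mature let-7 sequences are shown because they are the link between Dicer and these genes in earlier work. They are from RefSeq (GRCm38.p6), 5′ to 3′, with the seed, bases 2 to 8, in capitals. Of the 11 let-7 and miR-98 sequences matched, 10 shared the seed of let-7a, and the exception was let-7j.
mmu-let-7a-5p: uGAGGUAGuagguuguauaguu
mmu-let-7d-5p: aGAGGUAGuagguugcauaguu
mmu-let-7g-5p: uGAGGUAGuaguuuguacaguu
mmu-miR-98-5p: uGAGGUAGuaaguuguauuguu
mmu-let-7j: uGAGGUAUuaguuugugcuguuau

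Promoter sequences, from 250 bases before to 50 after the gene start, were matched by symbol for 2 of the 3 genes, Igf2bp2 and Igf2bp3, and are shown because H3K4me3, the promoter mark, was among the marks that differed at each locus. They are from RefSeq in GRCm38.p6, a build other than that of the events, so no distance between these coordinates and the events is given. Both genes are on the minus strand, and the 300-base promoter windows are chr16:22163250-22163549 for Igf2bp2 and chr6:49214905-49215204 for Igf2bp3. Capitals mark the GC box GGGCGG (read on either strand) and the E-box CACGTG.
Igf2bp2: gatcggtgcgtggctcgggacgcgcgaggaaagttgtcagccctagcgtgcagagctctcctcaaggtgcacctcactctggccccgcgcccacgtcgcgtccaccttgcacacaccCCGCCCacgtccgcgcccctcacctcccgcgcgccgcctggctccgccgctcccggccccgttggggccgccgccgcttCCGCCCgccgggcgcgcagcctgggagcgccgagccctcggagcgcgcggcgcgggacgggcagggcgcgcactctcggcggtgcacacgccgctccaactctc
Igf2bp3: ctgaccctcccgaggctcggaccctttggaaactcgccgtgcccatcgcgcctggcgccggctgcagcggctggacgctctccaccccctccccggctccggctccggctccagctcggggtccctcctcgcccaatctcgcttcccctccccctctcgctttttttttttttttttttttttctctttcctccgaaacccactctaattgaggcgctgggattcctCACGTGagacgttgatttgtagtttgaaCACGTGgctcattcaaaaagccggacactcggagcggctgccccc

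The promoter of Igf2bp2 held 47 CpG dinucleotides and that of Igf2bp3 held 25, against a median of 7 over 32851 promoters of the same length. At least 47 were found in 1.44% of all promoters and at least 25 in 18.4%. Igf2bp2 had 2 GC boxes and no E-box, and Igf2bp3 had 2 E-boxes and no GC box. A GC box was present in 35.7% of all promoters and 2 or more in 19.5%, while the E-box was present in 7.15% and occurred 2 or more times in 0.594%. Neither promoter held the letters TATAAA, which 13.6% of promoters hold. The motifs were searched on both strands, do not overlap each other, and were chosen after the sequences were seen.

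All 86 events were higher in Dicer KO. The windows held 18 H3K27ac, 20 H3K4me3 and 48 H3K36me3 events, and none of the events higher in Dicer WT. Over all listed events, 82.5% were higher in KO for H3K27ac, 11.8% for H3K4me3 and 33.8% for H3K36me3. Because the windows were chosen on these lists, nothing is read from the difference. On the same chromosomes outside the windows, the KO share was 86.1% (chromosome 11), 82.3% (16) and 82.0% (6) for H3K27ac. The same shares were 17.1%, 32.6% and 19.1% for H3K4me3, and 47.2%, 54.4% and 32.7% for H3K36me3. For H3K36me3, the list higher in KO was made with the program GPS and the list higher in WT with GEM. Its shares may therefore also depend on the program.

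The sizes of the differences were large within the lists. Since the windows were chosen for large differences in these same lists, this contrast with the lists is a description only. For H3K4me3, 13 of the 20 events were at least 10-fold higher in KO, where 14.0% of the KO list was. For H3K27ac, 7 of 18 passed 10-fold, against 0.757% of the KO list, and for H3K36me3 37 of 48 did, against 11.4%. Median ratios of KO to WT were 6.83 for H3K27ac, 13.9 for H3K4me3 and 17.5 for H3K36me3, beside medians of 2.87, 4.1 and 4.06 in the whole KO lists. A few members were ordinary: 3 H3K27ac, 1 H3K4me3 and 2 H3K36me3 events lay at or below the list median. Intervals given with ratios are exact conditional binomial (Clopper-Pearson) 95% intervals of the reads in both genotypes. They cover counting error only, since each list gives 1 value per genotype, with replicates pooled or not separated, and sequenced reads can be copies of 1 molecule.

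**Figure D1:**
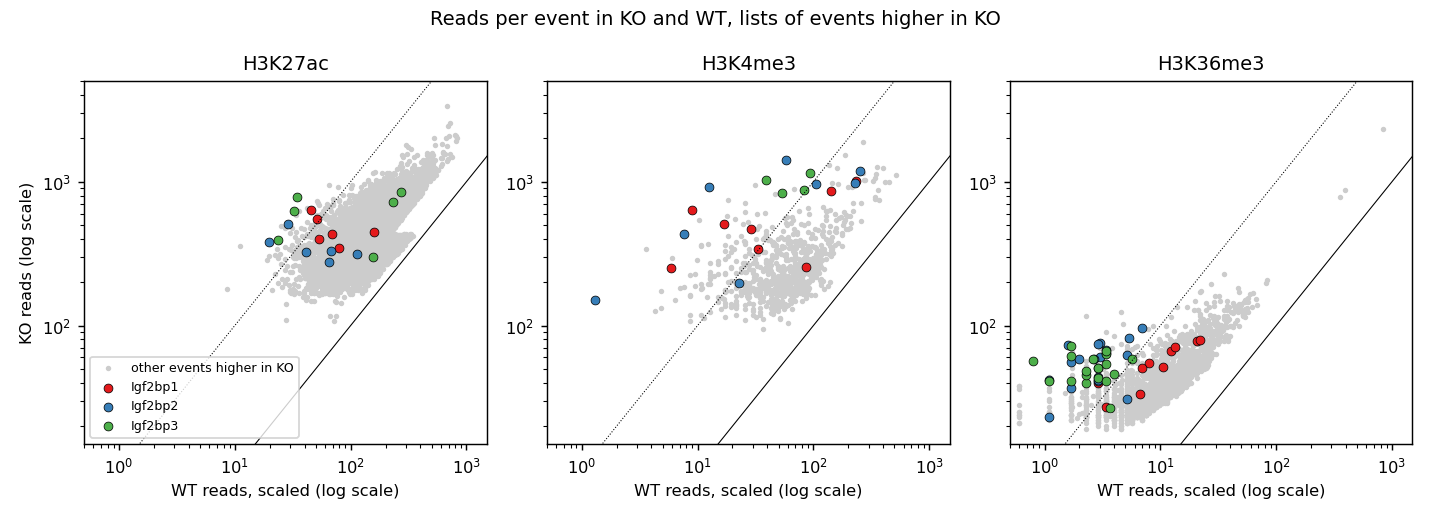
Reads per event in KO (vertical, log scale) against scaled reads in WT (horizontal, log scale) for each mark, with grey points for all events higher in KO and coloured points for the 3 loci. The solid line marks equal reads and the dotted line a 10-fold difference, and 13 of 20 H3K4me3, 7 of 18 H3K27ac and 37 of 48 H3K36me3 points of the loci lie on or above the dotted line.

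Igf2bp1 had 8 H3K4me3, 6 H3K27ac and 10 H3K36me3 events between 95834218 and 95879346 on chromosome 11. The protein was first described as binding the Myc coding region and the Actb zipcode. H3K4me3 fell into 2 clusters, taken as events at most 5 kb apart. The larger ran from 95864061 to 95867849 and summed to 3060 reads in KO and, after scaling, 237 in WT (ratio 12.9, 10.7 to 15.8). The smaller, at 95842919 to 95843632, had 1261 against 320, a ratio of 3.94 (3.33 to 4.71). The ratio was thus lower at the site about 20 kb away, where WT had more scaled reads. At all 8 H3K4me3 events of the window, however, WT stayed below its deposited background on the chromosome. The counting intervals of the 2 clusters do not overlap. They hold no replicate error and the clusters were chosen after the data were seen, so this is a description only.

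Within the larger Igf2bp1 cluster, KO reads were spread over all 6 events while WT reads were concentrated in 1 of them. From the lowest to the highest coordinate, the events at 95864061, 95865236 and 95866098 had 250, 509 and 634 reads in KO and 5.9, 16.9 and 9.0 in WT. At 95866430, 95867028 and 95867849 they had 470, 855 and 343 in KO and 29.2, 142 and 33.1 in WT. The ratio thus ran from 42.4 (13.1 to 190) and 30.1 (14.9 to 69.1) to 70.5 (28.7 to 272), and then 16.1 (9.23 to 28.8), 6.00 (4.70 to 7.88) and 10.4 (6.37 to 19.3). In the smaller cluster, 95842919 had 255 against 86.7 reads (2.95, 2.12 to 4.26), and 95843632 had 1006 against 233 (4.32, 3.53 to 5.29), the most KO reads of any H3K4me3 event in this window.

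H3K27ac at Igf2bp1 followed both H3K4me3 clusters and also lay beyond them. The event with the most reads, at 95867027, was 1 bp from an H3K4me3 event and had 635 reads in KO against 45.5 in WT, a ratio of 14.0 (10.5 to 18.6). Next to it, 95862142 had 547 against 51.1 (10.7, 8.21 to 14.3). Over the smaller cluster, 95843642 had 433 against 69.6 (6.23, 4.90 to 7.97) and 95844342 had 346 against 79.8 (4.34, 3.44 to 5.50). Both marks therefore had lower ratios at the smaller cluster. At higher coordinates, with no listed H3K4me3 event, 95872554 had 398 against 53.5 (7.44, 5.69 to 9.86) and 95879346 had 444 against 159 (2.79, 2.35 to 3.33), so the ratio was lowest at the edge of the group.

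H3K36me3 at Igf2bp1 covered 95834218 to 95865207, and 9 of its 10 events lay at lower coordinates than the larger H3K4me3 cluster. The 6 events up to 95842785 gave a ratio of 4.44 (3.67 to 5.41), and the 4 from 95855474 on gave 8.16 (5.68 to 11.9). By −log10 q the leading event, at 95855474, had 55 reads in KO and 8.0 in WT (6.88, 3.75 to 13.3). The largest ratio, 13.8 (5.49 to 45.2) at 95856047, rested on 40 reads against 2.9, and the most reads, 79.7 against 22.1 at 95838828, came with the lowest ratio of the gene, 3.61 (2.46 to 5.54).

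Igf2bp2 had 8 H3K4me3, 6 H3K27ac and 20 H3K36me3 events between 22058983 and 22168785 on chromosome 16. Its product is known for binding metabolic messenger RNAs and for a human gene region linked to type 2 diabetes. The main H3K4me3 cluster, 22160317 to 22164092, had 5887 reads in KO against 665 in WT, a ratio of 8.85 (7.89 to 9.95). It included the highest-ranked H3K4me3 event of the KO list by −log10 q, at 22161757, with 1402 reads against 58.1, a ratio of 24.1 (16.6 to 36.9).

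The H3K4me3 ratio at Igf2bp2 was higher on the low-coordinate side of the cluster than on the other. At 22160317 it was 56.9 (19.5 to 186), from 432 reads in KO and 7.6 in WT, and at 22161065 it was 72.8 (32.6 to 195), from 917 and 12.6. Beyond the peak at 22161757 it was 9.30 (6.92 to 12.6) at 22162537, from 970 and 104 reads. It was 4.68 (3.87 to 5.69) at 22162742, from 1193 and 255, and 4.27 (3.49 to 5.27) at 22164092, from 972 and 228. WT reads thus ranged from 7.6 to 255 over the cluster, with the highest values at its upper end, while KO reads ranged from 432 to 1402. A pair of weaker events stood about 10 kb lower: 22150693 had 198 against 22.8 (8.69, 4.59 to 17.1). The other, 22152389, had 150 against 1.3, a ratio of 115. Its interval ran from 12.4 to 2779 because WT had about 1 read. This was the largest H3K4me3 ratio of the KO list, but events without WT reads had been given 3 reads before scaling. Its place in the list therefore depends on that floor.

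H3K27ac at Igf2bp2 had its highest ratios at the main H3K4me3 cluster. At 22161660 there were 383 reads in KO and 19.8 in WT (19.3, 12.9 to 31.3), and at 22162761 there were 506 and 28.6 (17.7, 12.4 to 25.6). These 2 events held ranks 6 and 8 by ratio among the 8323 of the KO list, though only 3915 and 2040 by KO reads. Lower in the window, 22154226 had 326 against 41.4 (7.88, 5.78 to 10.8) and 22150833 had 312 against 113 (2.77, 2.26 to 3.44), the latter 140 bp from an H3K4me3 event. Still lower, and over 25 kb from any listed H3K4me3 event, 22124844 had 331 against 68.0 (4.87, 3.80 to 6.30) and 22119562 had 275 against 64.6 (4.26, 3.29 to 5.56).

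H3K36me3 at Igf2bp2 spanned 109803 bp, and 19 of its 20 events lay at lower coordinates than the main H3K4me3 cluster, which is downstream for a gene on the minus strand. WT had 1.1 to 6.9 scaled reads per event and KO 23 to 96. Only events higher in KO are in this list, so nothing is read from the separation of these ranges. By −log10 q the leading event, at 22128195, had 62 reads against 5.2 (11.9, 5.92 to 27.4). The most reads, 96 against 6.9, were at 22066141 (13.9, 7.61 to 27.9), and the largest ratio, 46.1 (14.1 to 213), was at 22079682 with 73.7 against 1.6. All but 1 of the 20 passed 10-fold, and the exception, 22141272, had 31 against 5.2 (5.96, 2.78 to 14.3).

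Igf2bp3 had 4 H3K4me3, 6 H3K27ac and 18 H3K36me3 events between 49046946 and 49167522 on chromosome 6. It is the member most often used as a tumour marker. All 4 H3K4me3 events passed 10-fold and together had 3887 reads in KO against 268 in WT, a ratio of 14.5 (12.1 to 17.5). At 49163888 there were 1033 reads against 38.8 (26.6, 16.8 to 45.3) and at 49164466 there were 881 against 82.3 (10.7, 7.81 to 15.4). At 49165192 there were 830 against 53.5 (15.5, 10.4 to 24.1) and at 49167522 there were 1144 against 93.7 (12.2, 8.97 to 16.8). The events had similar reads, and WT was low at each of them.

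H3K27ac at Igf2bp3 formed 2 groups over 100 kb apart that differed in size. Near the H3K4me3 cluster, 49164356 had 778 reads in KO and 34.4 in WT, a ratio of 22.6 (16.7 to 32.3) that was second among all H3K27ac events of the KO list. Beside it, 49160352 had 394 against 23.5 (16.8, 11.3 to 25.2) and 49157015 had 630 against 32.3 (19.5, 14.1 to 27.8). The 3 together had a ratio of 19.97 (16.4 to 24.6). At the other end of the window the ratio of the group was 2.83 (2.60 to 3.08), close to the list median of 2.87. There, 49046946 had 720 against 230 (3.13, 2.72 to 3.62), 49047821 had 298 against 157 (1.90, 1.58 to 2.30) and 49051154 had 848 against 273 (3.11, 2.73 to 3.55). WT carried H3K27ac at this end, with at least 157 scaled reads per event, against at most 34.4 near the H3K4me3 cluster. In RefSeq (GRCm38.p6), Malsu1, the pseudogene Gm18010 and the non-coding D030074P21Rik overlap Igf2bp3 and Gpnmb and Tra2a are its protein-coding neighbours, so these events need not belong to Igf2bp3.

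H3K36me3 at Igf2bp3 lay wholly at lower coordinates than the H3K4me3 cluster, downstream on the minus strand, in 2 groups of 9 events with a gap of 55322 bp between them. The groups, 49057352 to 49089437 and 49144759 to 49159581, had ratios of 16.5 (12.2 to 23.0) and 21.0 (15.3 to 30.2), whose intervals overlap. The event with the largest −log10 q and the most reads, at 49147301, had 72 reads in KO against 1.7 in WT (42.4, 13.7 to 207). The largest ratio of the locus for this mark, 71.1 (17.1 to 3983), was at 49156023, with 56.9 against 0.8 reads. It was also the largest of the KO list, but events without WT reads had been given 3 reads before scaling. Its place in the list therefore depends on that floor. The lowest ratio of the locus, 7.19 (3.17 to 23.2) at 49159581, came from 26.6 against 3.7, and the other 17 passed 10-fold.

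**Figure D2:**
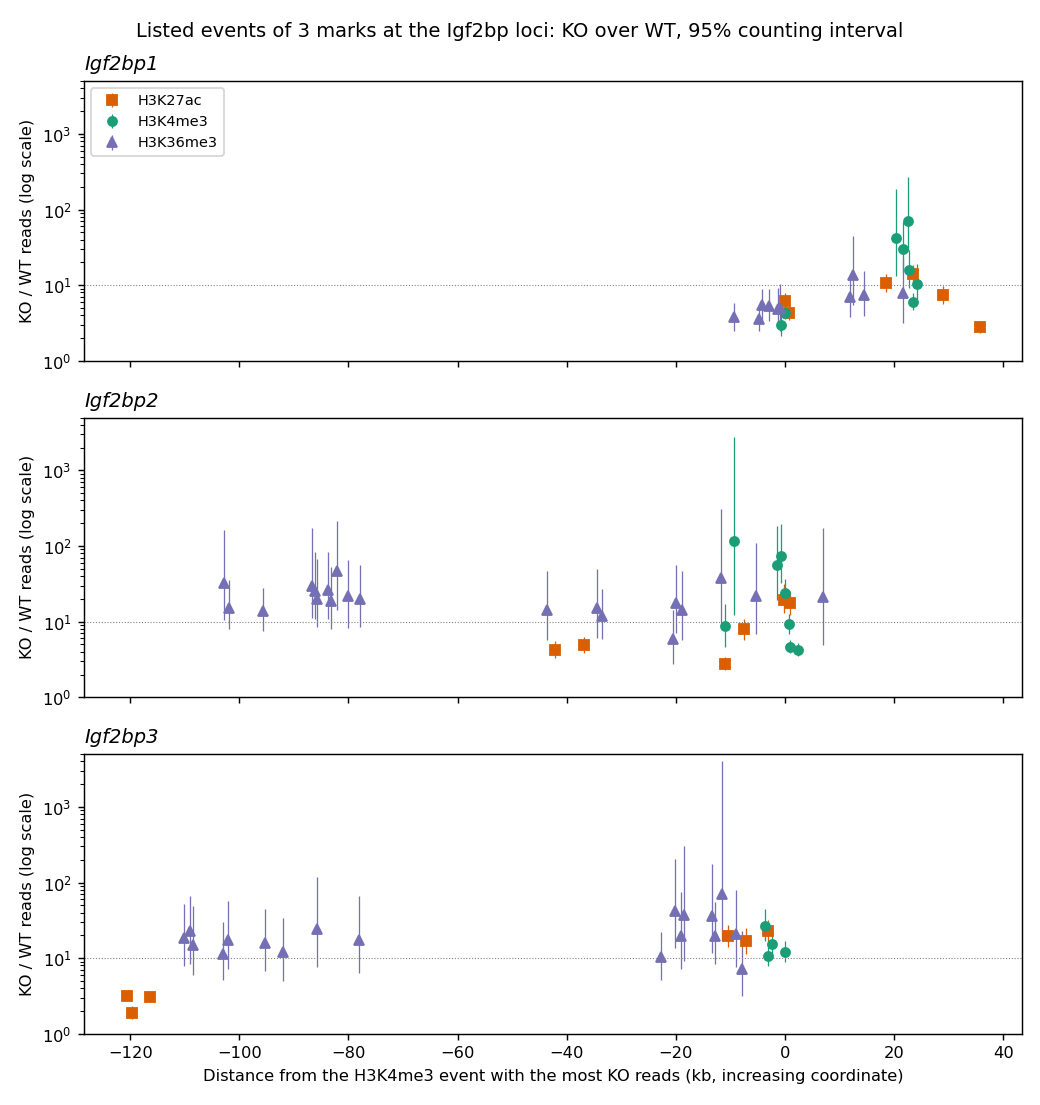
Ratio of KO to WT reads (vertical, log scale) for each listed event against its distance in kb from the H3K4me3 event with the most KO reads in its window, with bars for the 95% counting interval and a dotted line at 10-fold. At Igf2bp1 that event belongs to the smaller H3K4me3 cluster, so the larger one appears 20.4 to 24.2 kb to the right; the 3 H3K27ac events at the far left of Igf2bp3 have ratios of 1.90 to 3.13.

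The loci were then compared with each other mark by mark. The intervals cover counting error only, so whether they overlap is a description and not a test of a difference between loci. For H3K36me3, the summed ratio was 5.18 (4.38 to 6.15) at Igf2bp1, 18.4 (15.1 to 22.6) at Igf2bp2 and 18.6 (14.8 to 23.3) at Igf2bp3. The interval of Igf2bp1 overlaps neither of the others, which overlap each other. KO reads per event were close, with medians of 53.3, 58.6 and 49.5, while WT medians were 9.25, 2.90 and 2.75 scaled reads. The lower ratio of Igf2bp1 came with more WT reads at similar KO reads. Many single H3K36me3 events had a low −log10 q. A value of at least 5 was reached by 3 of 10 events at Igf2bp1, 9 of 20 at Igf2bp2 and 5 of 18 at Igf2bp3. Most of the KO list also fell short of 5: among its 1709 events, a value of 5.43 ranked 271 and one of 4.95 ranked 336.

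For H3K4me3 the summed ratios were 7.77 (6.86 to 8.85) at Igf2bp1, 9.05 (8.09 to 10.2) at Igf2bp2 and 14.5 (12.1 to 17.5) at Igf2bp3, and only the interval of Igf2bp3 stood apart from both others. For H3K27ac they were 6.12 (5.58 to 6.72), 6.37 (5.72 to 7.11) and 4.89 (4.54 to 5.27), with Igf2bp3 lowest. Without the event with the most reads in each window they were 5.25, 5.31 and 5.91, with Igf2bp3 highest, so the order rests on single events. Counted only for the group of events at or beside the main H3K4me3 cluster, the H3K27ac ratio was 12.2 (10.1 to 14.9), 18.4 (14.0 to 24.4) and 19.97 (16.4 to 24.6). There the interval of Igf2bp2 overlaps both others, while those of Igf2bp1 and Igf2bp3 do not overlap each other.

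Sizes moved with the scale. When KO and WT reads were each expressed as multiples of that genotype's deposited background for the chromosome, the H3K4me3 ratios became 12.9, 14.2 and 23.0 and the H3K27ac ratios 4.03, 4.59 and 3.30, in the order Igf2bp1, Igf2bp2 and Igf2bp3. No event reversed on that scale. The lowest was H3K27ac at 49047821 beside Igf2bp3, at 1.28. No such background was used for H3K36me3, whose deposited expected reads are local.

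**Figure D3:**
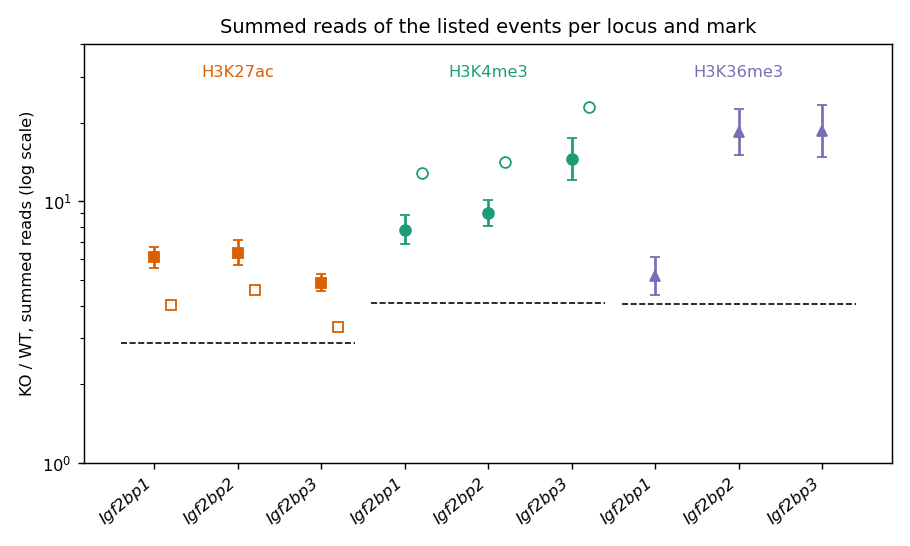
Ratio of summed KO to summed WT reads (vertical, log scale) of the listed events for each locus and mark, filled symbols at the scale of the lists with 95% counting intervals and open symbols as multiples of each genotype's background. Dashed lines are the median event ratios of the whole KO lists, 2.87, 4.1 and 4.06, and the H3K36me3 value of Igf2bp1, 5.18, lies well below the 18.4 and 18.6 of the other genes.

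Along the main H3K4me3 clusters, the reads of the genotypes were placed differently at Igf2bp1 and Igf2bp2, and less so at Igf2bp3. At Igf2bp1, the event with the most WT reads and the one above it held 74.5% of the WT reads of the cluster and 39.1% of the KO reads. At Igf2bp2 the corresponding 2 events held 72.6% and 36.8%, and at Igf2bp3 the last event of the cluster held 35.2% and 29.4%. The events were picked where WT was highest, so the WT share is high by construction and these shares are a description only. The read-weighted centre lay 537, 770 and 227 bp higher in WT than in KO at the 3 loci. WT had fewer reads than its own background on the chromosome at all 8 H3K4me3 events of Igf2bp1, 6 of 8 of Igf2bp2 and all 4 of Igf2bp3. At those events, the placement of the mark in WT cannot be told apart from that of background reads. Lower coordinates are downstream for Igf2bp2 and Igf2bp3. The programs share reads between neighbouring events, so the split within a cluster is an estimate.

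**Figure D4:**
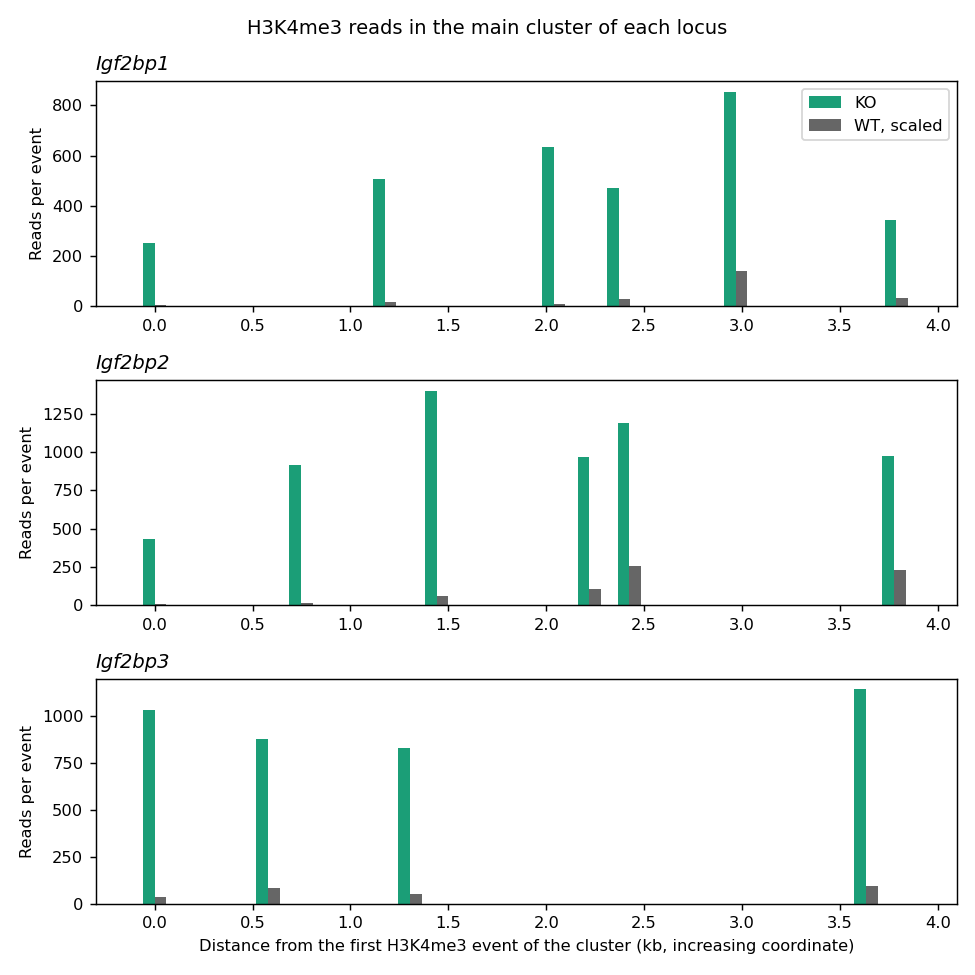
H3K4me3 reads per event (vertical) in KO and in WT after scaling, against distance in kb from the lowest-coordinate event of the main cluster of each locus. At Igf2bp1 the most WT reads, 142, stand at 95867028, and at Igf2bp2 the most, 255, at 22162742, while KO has at least 250 reads at each event of these clusters.

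The reads were also set against the deposited background of each chromosome. For H3K4me3, WT had fewer reads than its own background on that chromosome at 18 of 20 events, and the 2 exceptions were in Igf2bp2, where WT reached 1.42 times background. In the whole KO list the same was true of 95.9% of events, so the members were not unlike the list. For H3K27ac it held at 15 of 18 events, against 55.8% of the list, and the 3 exceptions were the far group of Igf2bp3, with up to 1.80 times background. The KO reads at the members were 1.28 to 3.78 times KO background for H3K27ac and 1.20 to 12.2 times for H3K4me3.

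Listed events thinned out beside the windows, in a different way at each locus. Within 500 kb on both sides of the Igf2bp1 window no event of any mark was listed, in either direction, and the nearest was an H3K27ac event 583 kb below. Beside the Igf2bp2 window, a KO H3K36me3 event with 26 reads against 8.0 (3.25) lay 6.9 kb above it, and the events next below were higher in WT, for H3K4me3 at a distance of 78.7 kb and for H3K27ac at 99 kb. Within 500 kb there were 4 WT events each for H3K27ac and H3K4me3, and 2 for H3K36me3. Farther above, 716.1 to 917.5 kb from the H3K4me3 event with the most KO reads, events of all 3 marks were again higher in KO. Their ratios reached 6.29 for H3K27ac, 16.8 for H3K4me3 and 33.6 for H3K36me3. Within 250 kb of the Igf2bp3 window, 4 H3K27ac, 4 H3K4me3 and 16 H3K36me3 events were higher in KO and none in WT. The nearest lay 234 kb below the window. Their largest ratios were 5.65, 4.88 and 9.84, all below the highest in the window. The H3K4me3 value was also below every member, the lowest of which was 10.7. The H3K27ac and H3K36me3 values were not below every member. The 4 H3K27ac events had a median of 5.01, above the 1.90 to 3.13 of the far H3K27ac group. The largest H3K36me3 ratio was above the lowest member, 7.19. Just inside the windows, the outermost events were 24.2 and 5.7 kb from the edges at Igf2bp1 (ratios of 3.75 and 2.79), 4.0 and 16.2 kb at Igf2bp2 (32.9 and 20.9), and 16.9 and 7.5 kb at Igf2bp3 (3.13 and 12.2).

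**Figure D5:**
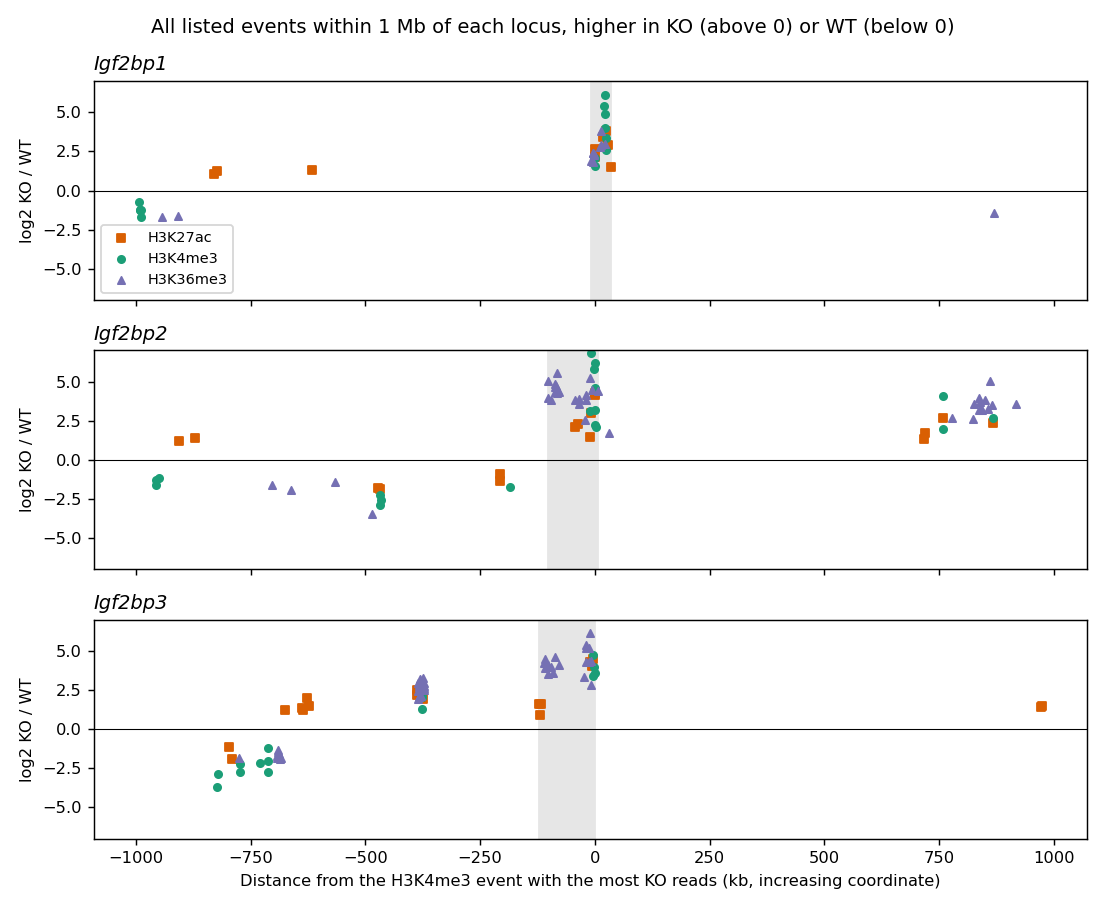
The log2 ratio of KO to WT reads (vertical, above 0 higher in KO, below 0 higher in WT) of all listed events within 1 Mb of each window, against distance in kb from the H3K4me3 event with the most KO reads. Grey bands span the member events. No other event lies within 500 kb of the Igf2bp1 window, and those beside Igf2bp2 at lower coordinates within 500 kb are higher in WT. At 716.1 to 917.5 kb on the right of Igf2bp2, events of all 3 marks are higher in KO.

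The background of whole chromosomes is given as a description. Background reads in KO over those in WT, set against the median of 20 chromosomes, were 1.14 on chromosome 11, 1.04 on 16 and 1.11 on 6 in the H3K27ac lists, and 1.01, 1.07 and 1.05 in the H3K4me3 lists. Before division by the median they were 1.29, 1.18 and 1.26 for H3K27ac, and 1.29, 1.37 and 1.35 for H3K4me3. Across the 20 chromosomes the divided values ran from 0.632 to 1.27 for H3K27ac and from 0.654 to 1.20 for H3K4me3. No such value was used for H3K36me3. A cause acting on whole chromosomes was not tested.

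Places with all 3 marks at this size were few. Of the 103 H3K4me3 events at least 10-fold higher in KO, 17 had both an H3K27ac and an H3K36me3 event of at least 10-fold within 65 kb, and these formed 6 places. The 3 Igf2bp loci were among the 6, with 13 of the 17 events. Since the windows were chosen for large differences in these lists, their presence among the 6 is a description only. The others were at 49702079 to 49702602 on chromosome 17, 55736653 on chromosome 15 and 158132776 on chromosome 2. With the threshold at 5-fold there were 27 places, and at 10-fold within 25 kb there were 5, each time with all 3 loci. By −log10 q, 4 of the 10 leading H3K4me3 events of the KO list were at these genes, as were 3 of the 10 with the most reads, while for H3K27ac and H3K36me3 none of the 10 leading events by −log10 q was. For H3K36me3, 27 of the 100 largest ratios in a list of 1709 lay in the windows, but only 4 of the 100 leading events by −log10 q and 0 of the 100 with the most reads. The ratio ranking rests on WT values of a few reads. It also rests on the 3 reads given before scaling to events without WT reads.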

How the data were processed

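ChIP-seq for H3K27ac, H3K4me3 and H3K36me3 in Dicer KO and Dicer WT cells was used as 6 lists of differential events. The deposited lists give estimated counts of reads per event in the higher genotype, per the file headers, made by the authors with an event caller. The names of the lists give GEM for both H3K4me3 lists and the H3K36me3 list higher in WT, and GPS for the other 3. No version of either is given in the sources used here. The reads of the other genotype, scaled by the authors, and their background reads were deposited as signal values, per the file headers. The −log10 q of each event is also the authors', as deposited. The submitters' processing notes name mm9 and TopHat 1.4, without the role of the latter. Depth per library is unknown.

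The scale factor was recovered from the steps of low values: WT reads had been multiplied by 0.85 (H3K27ac), 2.146 (H3K4me3) and 0.575 (H3K36me3) in the lists higher in KO, where 88.1%, 95.5% and 96.5% of low values came out whole within 0.06. Ratios are reads in KO over scaled reads in WT, with 95% Clopper-Pearson intervals on unscaled reads. Any listed event with 0 reads in WT was given 3 reads before scaling, so ranks by ratio depend on this floor. The labels' design speaks of 2 replicates per genotype, but the lists hold 1 value per genotype, so no test was run. Every listed column was mapped, with 0 left over. Loci, windows and lists were chosen with earlier results of these data known; the clusters (events within 5 kb), motifs and the 5-fold and 25 kb settings were chosen after the data were seen. The rule for named events took every event of a mark with 8 or fewer in a window, and otherwise those with the largest −log10 q, ratio and reads; the lowest ratios and the outermost events were added after their values were seen. The code was tested on simulated data. Alternatives were own background, 1 added read, stricter thresholds, merged events, wider windows and leaving out the event with the most reads. Intervals came from SciPy 1.17.1 and tables from pandas 2.3.3 with NumPy 2.4.6, run under Python 3.11.15, and figures from matplotlib 3.10.9.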

Additional observations from a re-analysis of the deposited data

How the results depend on the processing

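No paired analysis was possible because each list holds 1 value per genotype, and for the same reason no replicate could be left out. Of 42 alternative ratios of summed reads, 30 stayed within the counting interval, 12 moved outside it and 0 reversed; of 36 alternative counts of events, 28 stayed within 1.5 times and 8 did not. In the order Igf2bp1, Igf2bp2 and Igf2bp3, scaling by own background gave 4.03, 4.59 and 3.30 for H3K27ac and 12.9, 14.2 and 23.0 for H3K4me3. Without the event with the most reads, H3K27ac gave 5.25, 5.31 and 5.91, which put Igf2bp3 highest in place of lowest, and H3K4me3 gave 10.3 at Igf2bp1 and 7.66 at Igf2bp2, which turned the order of these 2. Merging events within 1 kb left 3, 4 and 2 H3K4me3 events. A −log10 q of at least 5 left 3, 9 and 5 H3K36me3 events, and the ratio at Igf2bp3 became 24.2. Requiring 50 reads left 13 H3K36me3 events at Igf2bp2 and 9 at Igf2bp3. Places with all 3 marks rose from 6 to 27 at 5-fold and were 5 within 25 kb, settings chosen after seeing the data. Low WT reads limit single H3K36me3 ratios: 11 of 48 events had at most 3 unscaled reads in WT.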
